A study of Homo sapiens with 14 samples.

Results

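The genes described here are the FOXO transcription factor genes FOXO1 and FOXO3, 5 genes known as targets of FOXO factors or as parts of insulin signalling (IRS2, INSR, CCNG2, BCL6 and PIK3IP1), and the Yippee-like genes YPEL2, YPEL3 and YPEL5. They were chosen by symbol: each is represented by the array's transcript cluster that the array annotation gives to that gene alone, a transcript cluster being the group of probes that is summarized to 1 value. They are 10 of 18377 genes with such a cluster, and 9 of the 11026 genes bright enough to be tested. PIK3IP1 was below the filter. Its mean of 4.85 on the log2 scale lay at the 24.7th percentile of all genes, under the filter's level of 5.81, and it is given as values.

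FOXO proteins are transcription factors that insulin and growth factors hold out of the nucleus: the receptor recruits IRS proteins, PI3-kinase activates AKT, and AKT phosphorylates FOXO, which is then bound by 14-3-3 proteins and exported. When growth factors are withdrawn FOXO returns to the nucleus and drives genes of cell cycle arrest, stress resistance and catabolism, and also IRS2 and INSR, which restore sensitivity to insulin. The YPEL genes encode small conserved zinc-binding proteins. YPEL3 is linked to growth arrest and senescence, and YPEL5 is a subunit of the CTLH ubiquitin ligase.

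The RNA came from MiaPaCa2, a human pancreatic carcinoma line, on 14 Affymetrix whole-transcript arrays in separate sets of 6 and 8. Cells carried a scrambled control siRNA (siCtrl) or an siRNA, a short RNA that silences the matching gene, against NUPR1 (siNupr1), RELA, whose protein is p65 (siRelA), or RELB (siRelB). In the NF-kB set, siCtrl, siRelA and siRelB cells were each kept for 9 h in EBSS, Earle's balanced salt solution, or in a medium called mock whose composition the labels do not give. In the Nupr1 set, siCtrl and siNupr1 cells were each taken at 0 h, used here as unstarved, and after 3, 6 and 9 h in EBSS. The labels describe EBSS as lacking glucose, amino acids and growth factors, although the usual formula contains glucose. All 14 arrays therefore carry a transfected siRNA. Each combination was measured on 1 array, and nothing says whether arrays came from separate cultures, so the p-values measure only the spread between these arrays, which may be technical. The study asked which genes depend on NUPR1, RELA and RELB when pancreatic cancer cells are starved.

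Several labels limit the comparisons. For the siNupr1 array at 9 h, the title names another siRNA than the source and description do. The 0 h arrays have titles naming DMEM, the growth medium, and a source field naming EBSS. The array medians lay between 5.67 and 5.84. The targeted genes were lower where their siRNA was used: NUPR1 by a log2 difference of -0.87 ± 0.10 (SE, 4 pairs), RELA by -2.49 ± 0.13 (2 pairs) and RELB by -1.32 ± 0.17 (2 pairs), with adjusted p of 1.954e-05, 2.958e-10 and 3.62e-05. In the same fits siNupr1 also lowered RELB (-0.67 ± 0.12, 4 pairs, adjusted p = 0.000945). Likewise siRelB lowered NUPR1 (-0.43 ± 0.14, 2 pairs, adjusted p = 0.0442). Differences with siNupr1 and siRelB therefore cannot be assigned to 1 silenced gene. The keratins KRT8, KRT18 and KRT19 and the mesenchymal marker VIM were bright (medians of 12.81, 13.01, 10.16 and 12.69). The keratin KRT7 was just above the filter's level, at a median of 6.16. The epithelial markers EPCAM and CDH1 and the other mesenchymal marker, CDH2, lay below the filter at medians of 3.59, 4.52 and 4.77. Of the markers of other cell types, 0 of 3 for endothelium, 1 of 3 for leukocytes (CD14, with PTPRC and CD3E below) and 3 of 4 for fibroblasts (COL1A1, COL1A2 and COL3A1, with DCN below) passed it. COL1A2 was as bright as KRT19, with a median of 10.18 and a range of 9.22 to 10.99, while DCN had a median of 2.88. The fibroblast list's mean level, which averages such unlike genes, ran from 6.26 to 6.78 in starved arrays and from 6.60 to 6.76 in the others, which overlap. The lists for acinar cells (1 of 3 above the filter, CELA3A), leukocytes and endothelium ran from 4.99 to 5.58, 4.24 to 4.69 and 4.53 to 5.15 in starved arrays and from 5.11 to 5.47, 4.31 to 4.61 and 4.51 to 4.91 in the others.

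All differences below are log2 differences from 1 linear model of both sets (limma), given with a standard error and a Benjamini-Hochberg adjusted p over the 11026 tested genes. A gene is said to have risen or fallen where that adjusted p was under 0.05. A difference of 1 is a doubling. A cell line sample is bulk RNA, so fewer cells of a state and less RNA per cell cannot be told apart.

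The promoters of 4 of these genes are shown because a FOXO site can be looked for in them. YPEL3 and IRS2 hold a match to a FOXO motif. YPEL2 and CCNG2 rose in all comparisons with unstarved or mock-treated cells, as did IRS2 and YPEL5. They are RefSeq sequences of build GRCh38.p14, 250 bases before the annotated start to 50 after it, on the gene's strand from 5′ to 3′. Capitals mark a match to GTAAACA or CAAAACA, or to the reverse complement of either.
YPEL3 (chr16:30096164-30096463, minus strand): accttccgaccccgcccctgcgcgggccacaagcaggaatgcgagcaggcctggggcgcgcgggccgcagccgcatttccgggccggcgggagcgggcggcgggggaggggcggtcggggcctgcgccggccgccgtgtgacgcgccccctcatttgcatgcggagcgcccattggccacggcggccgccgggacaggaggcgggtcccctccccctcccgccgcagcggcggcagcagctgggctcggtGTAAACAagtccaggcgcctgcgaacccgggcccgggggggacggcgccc
IRS2 (chr13:109786534-109786833, minus strand): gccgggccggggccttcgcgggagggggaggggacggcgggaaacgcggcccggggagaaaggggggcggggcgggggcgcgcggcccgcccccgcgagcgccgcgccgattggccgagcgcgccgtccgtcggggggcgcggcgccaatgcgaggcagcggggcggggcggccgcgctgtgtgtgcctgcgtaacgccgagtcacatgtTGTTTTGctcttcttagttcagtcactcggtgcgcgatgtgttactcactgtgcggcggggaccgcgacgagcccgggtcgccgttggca
YPEL2 (chr17:59331405-59331704, plus strand): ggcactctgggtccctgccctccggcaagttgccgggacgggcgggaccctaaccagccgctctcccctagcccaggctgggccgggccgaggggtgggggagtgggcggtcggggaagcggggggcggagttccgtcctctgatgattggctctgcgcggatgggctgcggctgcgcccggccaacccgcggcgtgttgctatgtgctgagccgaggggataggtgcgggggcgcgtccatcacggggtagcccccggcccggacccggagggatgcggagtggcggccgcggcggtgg
CCNG2 (chr4:77156957-77157256, plus strand): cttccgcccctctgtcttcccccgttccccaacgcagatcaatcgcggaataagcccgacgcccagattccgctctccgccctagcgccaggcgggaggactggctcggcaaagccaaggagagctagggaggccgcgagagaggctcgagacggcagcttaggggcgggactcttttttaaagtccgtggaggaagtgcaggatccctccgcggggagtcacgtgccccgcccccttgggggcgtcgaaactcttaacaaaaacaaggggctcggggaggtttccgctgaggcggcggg

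GTAAACA is the core of the site that FOXO proteins bind, and CAAAACA is the core of the insulin response sequence known from liver genes. Both were searched on both strands, and neither contains the other. In YPEL3 the match to GTAAACA begins at position 1, the annotated start. In IRS2 the match to CAAAACA is on the opposite strand and begins at position -40. Of the 10 genes, 3 had a match, the third being PIK3IP1 with GTAAACA on the opposite strand at position 17 of 1 of its promoters. Counted by promoter, as are the shares over all promoters, 3 of the genes' 15 held a match. Over all 35116 human promoters in the table, 3.42% held GTAAACA, 4.92% held CAAAACA and 8.07% held either. The promoters printed above for YPEL3, IRS2, YPEL2 and CCNG2 are rich in G and C, at 79%, 75.7%, 75% and 64.7%, against a median of 58.7% over all promoters. These are matches of letters in a short window. The array does not measure binding.

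Most of the 9 tested genes rose in starved cells, and none of them fell in any of the 4 comparisons with unstarved or mock-treated cells. The genes were chosen with earlier results of these data known, so the shares given beside them are a description and no test. In EBSS against mock at 9 h, 7 of 9 rose, where 22.6% of all tested genes rose and 29.3% fell. At 3 h against 0 h, 5 of 9 rose, with 3.27% of all genes rising and 9.07% falling. At 6 h, 7 of 9 rose, with 7.65% rising and 15.7% falling. At 9 h, 6 of 9 rose, with 9.19% rising and 15.1% falling. The median difference of the 9 genes was 0.50 against mock and 0.53, 0.84 and 0.80 at 3, 6 and 9 h, beside medians of 0.05, -0.03, -0.01 and -0.04 over all tested genes. After quantile normalization the split over all genes moved from 361 rising and 1000 falling at 3 h to 487 and 654, and from 844 and 1736 at 6 h to 1144 and 1434. The counts for these 9 genes stayed at 5 and 7 there. Against mock the split over all genes moved from 2489 rising and 3233 falling to 3202 and 3069, so falls no longer outnumbered rises. BCL6 also passed against mock in that setting. The split at 9 h moved from 1013 and 1662 to 1187 and 1421.

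The comparisons at 3, 6 and 9 h share the 0 h arrays, so they are not independent of each other. They share no array with the comparison against mock. YPEL2, YPEL5, IRS2, CCNG2 and BCL6 rose at all 3 times, and 4 of these, all but BCL6, also rose against mock. FOXO1 and FOXO3, by its own cluster, rose against mock and at none of the 3 times. INSR rose at 6 h alone, and YPEL3 at 6 and 9 h and against mock.

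**Figure D1:**
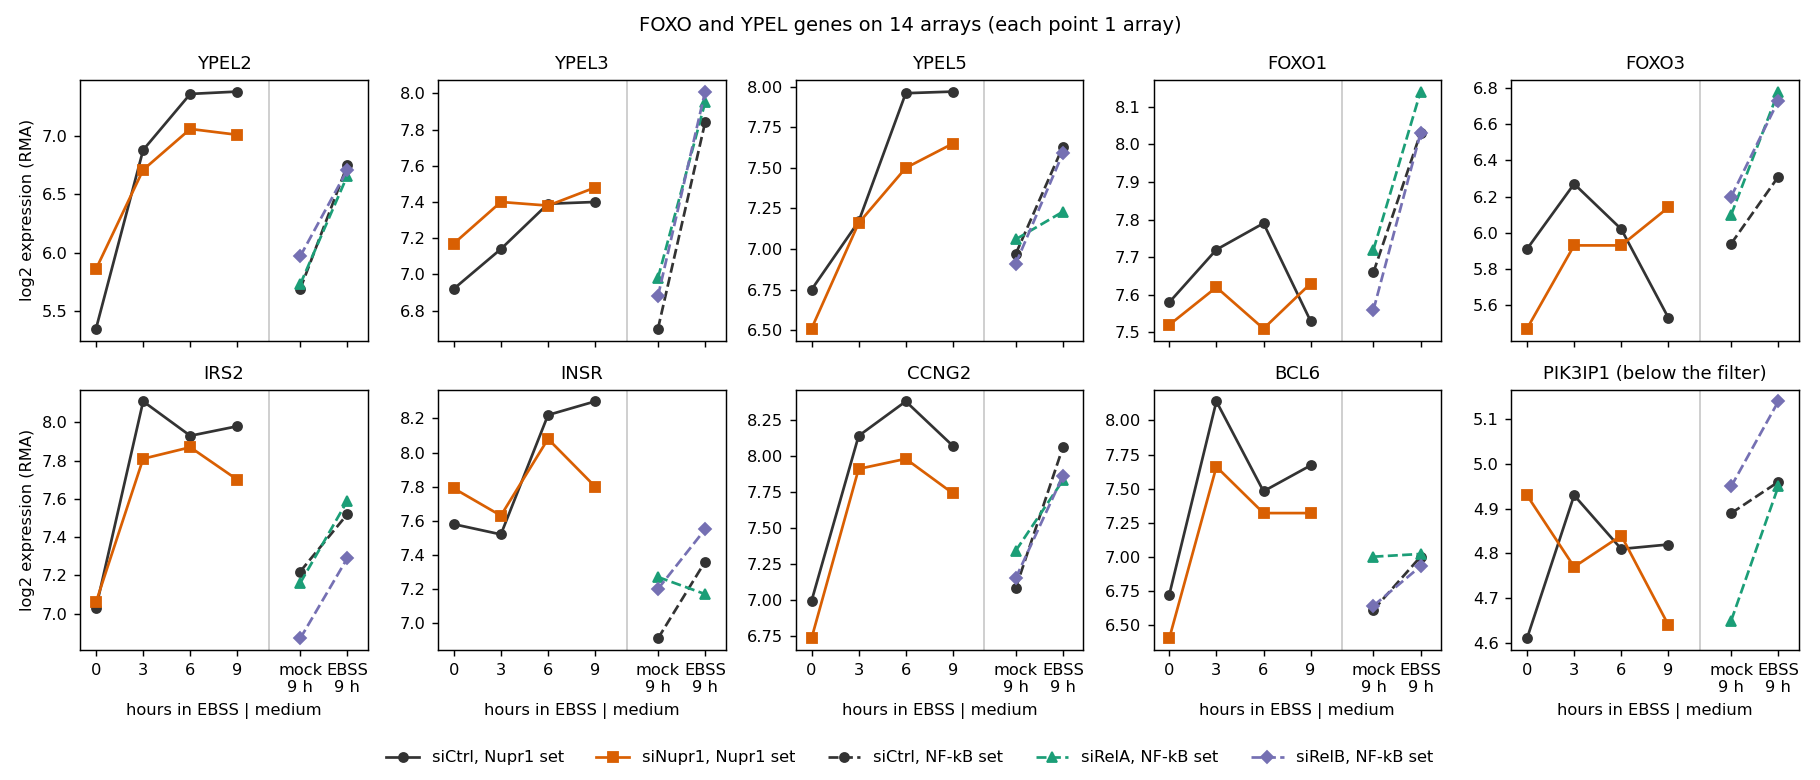
The log2 level of each of the 10 genes on each of the 14 arrays, with hours in EBSS to the left of the grey line (Nupr1 set) and mock or EBSS at 9 h to its right (NF-kB set); each point is 1 array and lines join arrays of 1 siRNA. YPEL2 climbs from 5.35 to 7.38 in siCtrl cells over 9 h, whereas FOXO1 stays between 7.51 and 7.79 in the Nupr1 set.

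**Figure D2:**
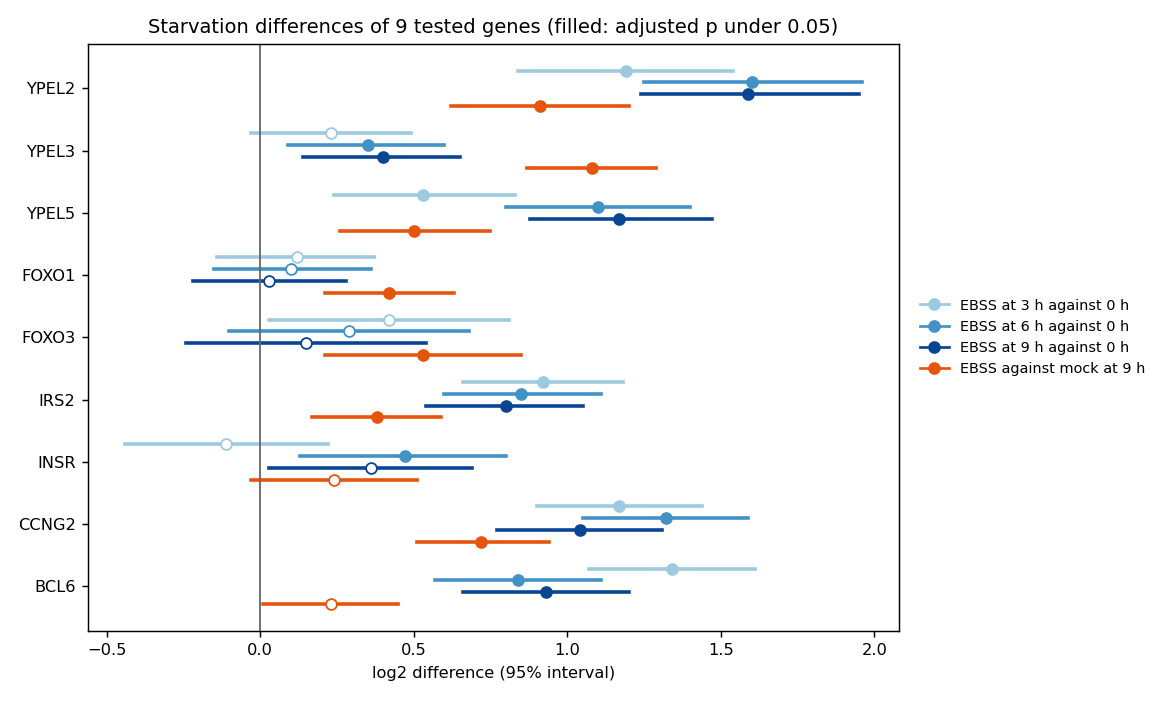
Fitted log2 differences of the 9 tested genes with their 95% intervals, for 3 comparisons with 0 h and the comparison with mock, each in its own colour; filled points have an adjusted p under 0.05. BCL6 stands at 1.34 at 3 h and at 0.23 against mock, and YPEL3 at 0.40 at 9 h and at 1.08 against mock.

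FOXO1, and FOXO3 by its own cluster, rose against mock and at no time against 0 h, while a cluster that FOXO3 shares with FOXO3B did the reverse. FOXO1 encodes the FOXO factor best known for control of insulin-responsive genes. Its level in the NF-kB set was 8.03, 8.14 and 8.03 in EBSS (siCtrl, siRelA and siRelB) and 7.66, 7.72 and 7.56 in mock. The lowest starved array was above the highest mock array, and the difference was 0.42 ± 0.10 (SE, higher in 3 of 3 pairs, adjusted p = 0.00175), a fold of 1.34. In the Nupr1 set it was 7.58, 7.72, 7.79 and 7.53 in siCtrl cells and 7.52, 7.62, 7.51 and 7.63 in siNupr1 cells at 0, 3, 6 and 9 h. Starved and unstarved arrays overlapped there, with differences from 0 h of 0.12 ± 0.12, 0.10 ± 0.12 and 0.03 ± 0.12 and adjusted p of 0.581, 0.593 and 0.904. The 95% interval at 9 h ran from -0.22 to 0.28.

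FOXO3 encodes the FOXO factor most often tied to stress and starvation. In the NF-kB set its own cluster read 6.31, 6.78 and 6.73 in EBSS and 5.94, 6.10 and 6.20 in mock. The groups did not overlap, and the difference was 0.53 ± 0.15 (SE, 3 of 3 pairs, adjusted p = 0.00744). Without the siRelA array in EBSS or in mock it was 0.45 and was not called (adjusted p of 0.0725 and 0.0713). In the Nupr1 set the siCtrl arrays read 5.91, 6.27, 6.02 and 5.53 and the siNupr1 arrays 5.47, 5.93, 5.93 and 6.14 at 0, 3, 6 and 9 h. The 9 h arrays went opposite ways, lower than 0 h by 0.38 in siCtrl cells (a difference of -0.38) and higher by 0.67 in siNupr1 cells. The fitted difference at 9 h was 0.15 ± 0.19 (adjusted p = 0.642). It was 0.60 (adjusted p = 0.0236) without the siCtrl array at 9 h and -0.30 (adjusted p = 0.247) without the siNupr1 array at 9 h, so these arrays set its direction. Without that siNupr1 array FOXO3 also fell from 3 to 9 h (-0.72, adjusted p = 0.0270). At 3 h the difference was 0.42 ± 0.19 (adjusted p = 0.158), and it passed the test without the 9 h array of siCtrl or of siNupr1 (0.42 in both, adjusted p of 0.0461 and 0.0471).

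A second cluster is annotated to FOXO3 together with FOXO3B, a near-identical copy, so its signal could come from either. Its level lay between 8.40 and 9.88 over the 14 arrays, and that of FOXO3's own cluster lay on both sides of the filter's level. It gave the opposite pattern of calls. Its difference against mock was 0.19 ± 0.09 (adjusted p = 0.0975), and from 0 h it was 0.45 ± 0.11, 0.36 ± 0.11 and 0.40 ± 0.11 at 3, 6 and 9 h, with adjusted p of 0.0128, 0.0249 and 0.0129. This cluster was looked at after the values of FOXO3 had been seen. Both clusters had positive fitted differences in all 4 comparisons, and they differed in which of these passed the test.

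Among the genes of insulin signalling, IRS2 rose in all 4 comparisons. IRS2 encodes the adaptor that links the insulin receptor to PI3-kinase. Its level was 7.03, 8.11, 7.93 and 7.98 in siCtrl cells and 7.06, 7.81, 7.87 and 7.70 in siNupr1 cells at 0, 3, 6 and 9 h. Both 0 h arrays lay below all 6 starved arrays of the set, and the differences from 0 h were 0.92 ± 0.12, 0.85 ± 0.12 and 0.80 ± 0.12 (SE, 2 of 2 pairs each, adjusted p of 7.644e-05, 6.644e-05 and 0.000101). The change from 3 to 9 h was -0.12 ± 0.12 (adjusted p = 0.604). In the NF-kB set IRS2 read 7.52, 7.59 and 7.29 in EBSS and 7.22, 7.16 and 6.87 in mock, and the groups did not overlap. The difference of 0.38 ± 0.10 (3 of 3 pairs) had an adjusted p of 0.00415. All 4 calls for IRS2 were kept under each of the 22 alternative settings.

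INSR encodes the insulin receptor. It was 7.58, 7.52, 8.22 and 8.30 in siCtrl cells and 7.79, 7.63, 8.08 and 7.80 in siNupr1 cells at 0, 3, 6 and 9 h. The 3 h arrays were below their 0 h arrays and the 6 h arrays above them. INSR rose at 6 h (0.47 ± 0.16, 2 of 2 pairs, adjusted p = 0.0397). That call was lost in 6 of 22 settings, among them without the siCtrl array at 0 h (0.27, adjusted p = 0.408), without that at 6 h (0.43, adjusted p = 0.265) and without the siNupr1 array at 6 h (0.50, adjusted p = 0.119). At 9 h the pairs differed by 0.72 in siCtrl and 0.00 in siNupr1 cells, and the fit gave 0.36 ± 0.16 (adjusted p = 0.107). Without the siNupr1 array at 9 h, the one with the discordant title, it was 0.64 (adjusted p = 0.0168), and without that at 0 h it was 0.56 (adjusted p = 0.0403). Without the siCtrl array at 9 h it was 0.08 (adjusted p = 0.777), and without the siCtrl array at 0 h it was 0.17 (adjusted p = 0.633). At 3 h it was -0.11 ± 0.16 (adjusted p = 0.706). From 3 to 9 h it was 0.47 ± 0.16 (2 of 2 pairs, adjusted p = 0.0741), and it passed without either array at 0 h (0.47 in both, adjusted p of 0.0436 and 0.0436) and without the siNupr1 array at 9 h (0.76, adjusted p = 0.0227). Without the siCtrl array at 9 h it was 0.19 (adjusted p = 0.574).

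Against mock, INSR read 7.36, 7.17 and 7.55 in EBSS and 6.91, 7.27 and 7.20 in mock, and the groups overlapped. The siRelA pair alone ran downward, by -0.10, beside 0.45 and 0.36 in the siCtrl and siRelB pairs, and the fit gave 0.24 ± 0.13 (adjusted p = 0.129). Without the siRelA array in EBSS or in mock the difference was 0.41 and was called, with an adjusted p of 0.0400 in both. Without the siCtrl array in EBSS or in mock it was 0.13 (adjusted p of 0.514 and 0.513). PIK3IP1 encodes a membrane protein that restrains PI3-kinase. Its 14 values ran from 4.61 to 5.14. Tested without the filter, it gave 0.19 ± 0.12 against mock (adjusted p = 0.257) and -0.04 ± 0.15 at 9 h against 0 h (adjusted p = 0.925), and it was called in none of the comparisons of these data.

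CCNG2 and BCL6 are classical FOXO targets. CCNG2 encodes cyclin G2, an atypical cyclin that slows the cell cycle. It rose in all 4 comparisons, and all 4 calls were kept under each of the 22 alternative settings. In the Nupr1 set it was 6.99, 8.14, 8.38 and 8.07 in siCtrl cells and 6.73, 7.91, 7.98 and 7.74 in siNupr1 cells at 0, 3, 6 and 9 h. All 6 starved arrays lay above both 0 h arrays. The differences were 1.17 ± 0.13, 1.32 ± 0.13 and 1.04 ± 0.13, with adjusted p of 7.913e-06, 9.155e-07 and 7.792e-06, and folds of 2.25, 2.50 and 2.06. In the NF-kB set the starved arrays read 8.06, 7.83 and 7.86 and the mock arrays 7.08, 7.34 and 7.15. Again the groups did not overlap, and the difference of 0.72 ± 0.10 had an adjusted p of 1.11e-05.

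BCL6 encodes a transcriptional repressor. It rose at 3, 6 and 9 h and did not pass the test against mock. In siCtrl cells it was 6.72, 8.14, 7.48 and 7.67 and in siNupr1 cells 6.40, 7.66, 7.32 and 7.32 at 0, 3, 6 and 9 h. Both siRNAs had their highest level at 3 h. All 6 starved arrays lay above both 0 h arrays. The difference from 0 h was 1.34 ± 0.13 at 3 h (adjusted p = 1.427e-06), 0.84 ± 0.13 at 6 h (adjusted p = 0.000123) and 0.93 ± 0.13 at 9 h (adjusted p = 3.028e-05). The change from 3 to 9 h was -0.40 ± 0.13, lower in 2 of 2 pairs, and did not pass the test (adjusted p = 0.0617). Against mock the pairs gave 0.38 in siCtrl, 0.02 in siRelA and 0.29 in siRelB cells. The siRelA arrays were near each other, at 7.02 in EBSS and 7.0 in mock. The fitted difference was 0.23 ± 0.11 (adjusted p = 0.0729), and without the siRelA array in EBSS or in mock it was 0.34 and passed (adjusted p of 0.0435 and 0.0434).

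YPEL2 had the largest rise of the 9 genes at 6 and at 9 h, except at 6 h without the siCtrl array at 0 h, where CCNG2 (1.29) was above it. It was 5.35, 6.88, 7.36 and 7.38 in siCtrl cells and 5.86, 6.71, 7.06 and 7.01 in siNupr1 cells at 0, 3, 6 and 9 h. All 6 starved arrays lay above both 0 h arrays. The differences were 1.19 ± 0.17 at 3 h (adjusted p = 0.000136), 1.60 ± 0.17 at 6 h (adjusted p = 2.475e-06) and 1.59 ± 0.17 at 9 h (adjusted p = 1.307e-06), or folds of 2.28, 3.04 and 3.01. The pairs were unequal. At 9 h siCtrl cells gave 2.03 and siNupr1 cells 1.15. In the NF-kB set YPEL2 read 6.75, 6.66 and 6.71 in EBSS and 5.69, 5.73 and 5.97 in mock, a difference of 0.91 ± 0.14 (3 of 3 pairs, adjusted p = 1.955e-05). The starved and mock groups did not overlap. The 4 calls were kept under each of the 22 settings.

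YPEL3 had the largest rise of the 9 genes against mock, except with the trend on genomic span removed, where YPEL2 stood at 1.11 and YPEL3 at 0.84, and a smaller one in the Nupr1 set. It read 7.84, 7.95 and 8.01 in EBSS and 6.70, 6.98 and 6.88 in mock. The groups were far apart and the 3 pairs close, at 1.14, 0.97 and 1.13, with a fitted difference of 1.08 ± 0.10 (adjusted p = 4.604e-08), a fold of 2.12. In the Nupr1 set it was 6.92, 7.14, 7.39 and 7.40 in siCtrl cells and 7.17, 7.40, 7.38 and 7.48 in siNupr1 cells at 0, 3, 6 and 9 h. The siNupr1 array at 0 h lay above the siCtrl array at 3 h, so starved and unstarved arrays overlapped. The differences were 0.23 ± 0.12 at 3 h (adjusted p = 0.245), 0.35 ± 0.12 at 6 h (adjusted p = 0.0473) and 0.40 ± 0.12 at 9 h (adjusted p = 0.0225). The call at 6 h was lost in 16 of 22 settings, with adjusted p up to 0.443, without the siCtrl array at 6 h. At 9 h the test was not passed without the siCtrl array at 0 h (0.33, adjusted p = 0.183), without that at 9 h (0.36, adjusted p = 0.105) and with array weights (0.40, adjusted p = 0.107).

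YPEL5 rose at 3 h and again between 3 and 9 h. It was 6.75, 7.17, 7.96 and 7.97 in siCtrl cells and 6.51, 7.16, 7.50 and 7.65 in siNupr1 cells at 0, 3, 6 and 9 h. The starved arrays did not overlap the 0 h arrays. The difference was 0.53 ± 0.14 at 3 h (adjusted p = 0.0183), 1.10 ± 0.14 at 6 h (adjusted p = 2.189e-05) and 1.17 ± 0.14 at 9 h (adjusted p = 6.385e-06). YPEL5 was the only one of the 9 to pass the test of 9 h against 3 h, where 4.68% of all tested genes rose and 2.66% fell (516 and 293 genes, or 424 and 383 after quantile normalization). That rise was 0.64 ± 0.14 (2 of 2 pairs, adjusted p = 0.0102) and was lost without the siCtrl array at 3 h (0.47, adjusted p = 0.235) or at 9 h (0.60, adjusted p = 0.0653). At 3 h the test was not passed without the siCtrl array at 0 h (0.52, adjusted p = 0.109), without the siNupr1 array at 0 h (0.55, adjusted p = 0.0532) and without the siNupr1 array at 3 h (0.37, adjusted p = 0.328).

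In the NF-kB set YPEL5 read 7.63, 7.23 and 7.59 in EBSS and 6.97, 7.06 and 6.91 in mock. The groups did not overlap, and the starved siRelA array was the lowest of the starved ones. The siCtrl and siRelB pairs gave 0.66 and 0.68 and the siRelA pair 0.17. The fitted difference was 0.50 ± 0.12 (adjusted p = 0.00142).

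The genomic span of a gene moved with the difference against mock. Over 11016 tested genes with a known span, Spearman's rho was -0.424 for EBSS against mock and -0.199, -0.128 and -0.023 at 3, 6 and 9 h, a correlation across genes, which are not independent replicates. YPEL3 is short, at 3.90 kb in RefSeq's GRCh38.p14 table against a median of 24.75 kb, while FOXO1, FOXO3 and INSR span 111 kb, 125 kb and 182.2 kb and YPEL2 70.1 kb. With the trend on span taken out of each array, the difference against mock was 0.84 for YPEL3 (adjusted p = 1.325e-06), 1.11 for YPEL2 (adjusted p = 3.505e-06), 0.67 for FOXO1 (adjusted p = 2.001e-05) and 0.78 for FOXO3 (adjusted p = 0.000325). INSR then rose, by 0.50 (adjusted p = 0.00395). At 9 h against 0 h the same step left YPEL2 at 1.59 and YPEL3 at 0.39.

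The starvation response at 9 h differed between the sets for 4 of the 9 genes, against 24.5% of all tested genes. This compares EBSS minus mock with EBSS minus 0 h, so the set of arrays and the time of the reference differ at once, the reference medium may differ too, and these cannot be told apart. YPEL3 responded more in the NF-kB set, by 0.68 ± 0.16 (adjusted p = 0.00359). YPEL5 and BCL6 responded less there, with differences of -0.67 ± 0.18 (adjusted p = 0.0116) and -0.70 ± 0.17 (adjusted p = 0.00433). YPEL2 also responded less, with a difference of -0.68 ± 0.22 (adjusted p = 0.0286), but 10 of 21 settings ended the call, and the value was -0.28 (adjusted p = 0.319) without the siCtrl array at 0 h. The YPEL5 call was lost without the siRelA array in EBSS or in mock (-0.50 in both, adjusted p of 0.0666 and 0.0662). The differences for IRS2 and FOXO1 were -0.41 ± 0.16 (adjusted p = 0.0661) and 0.39 ± 0.16 (adjusted p = 0.0777). That of FOXO1 passed without the siNupr1 array at 9 h (0.52, adjusted p = 0.0364) and with the span trend removed (0.65, adjusted p = 0.00557). That of FOXO3 by its own cluster, 0.38 ± 0.24 (adjusted p = 0.249), passed without the siNupr1 array at 9 h (0.83, adjusted p = 0.0102). Its sign changed in 2 of 22 settings, among them the cluster shared with FOXO3B, at -0.22 ± 0.15 (adjusted p = 0.279).

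**Figure D3:**
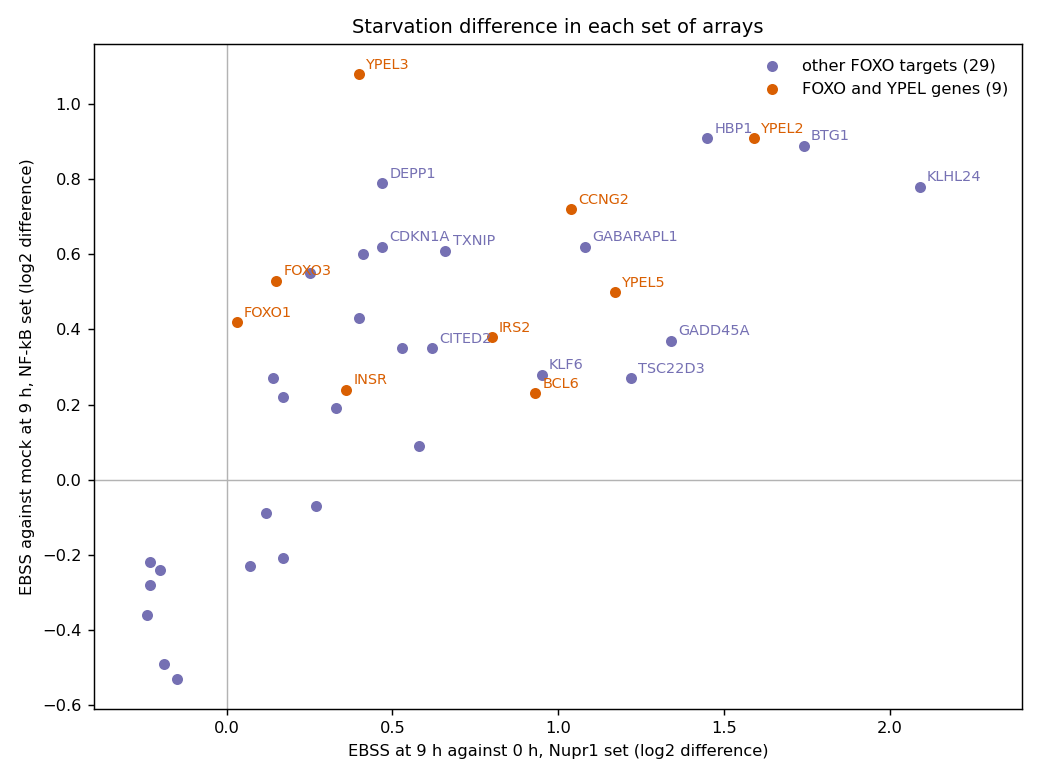
The fitted log2 difference of EBSS at 9 h against 0 h (Nupr1 set, x axis) and of EBSS against mock at 9 h (NF-kB set, y axis), 1 point a gene, for the 9 FOXO and YPEL genes (orange) and 29 other FOXO targets (purple). YPEL3, FOXO1 and FOXO3, by its own cluster, have the larger value on the y axis, and KLHL24, at 2.09 and 0.78, lies farthest along the x axis.

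Silencing NUPR1 lowered 2 of the 9 genes, CCNG2 and BCL6, and raised none. Over all 11026 tested genes 18.4% changed in either direction, 1087 rising and 946 falling, so the count of 2 is near the background. For CCNG2 siNupr1 minus siCtrl was -0.26, -0.23, -0.39 and -0.33 at 0, 3, 6 and 9 h. It was lower in 4 of 4 pairs, starved or not, with a fitted difference of -0.30 ± 0.09 (adjusted p = 0.0247). Of 14 fits with 1 array removed, 6 ended the call: those without either array at 0 h (-0.32 in both, adjusted p of 0.0508 and 0.0506), at 3 h (-0.33 in both, 0.0808 and 0.0811) or at 6 h (-0.27 in both, 0.112 and 0.111).

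For BCL6 the pairs gave -0.32, -0.48, -0.17 and -0.36 at 0, 3, 6 and 9 h. It too was lower in 4 of 4 pairs, with a fitted difference of -0.33 ± 0.09 (adjusted p = 0.0155). The call was lost without the 3 h array of siCtrl or of siNupr1 (-0.28 in both, adjusted p of 0.130). Without the siNupr1 array at 9 h, whose title is discordant, CCNG2 and BCL6 stood at -0.30 and -0.32 and both passed (adjusted p of 0.0455 and 0.0318). YPEL5 was lower in 4 of 4 pairs, by -0.24, -0.01, -0.46 and -0.32, and did not pass (-0.26 ± 0.10, adjusted p = 0.0821).

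The siNupr1 difference was also fitted as a slope on hours, and no slope passed the test. For YPEL2 the difference was 0.52, -0.16, -0.30 and -0.37 at 0, 3, 6 and 9 h, for INSR 0.21, 0.10, -0.14 and -0.50, and for FOXO3 -0.44, -0.34, -0.08 and 0.61. The slopes on hours were -0.09 ± 0.03 for YPEL2, -0.08 ± 0.03 for INSR and 0.11 ± 0.03 for FOXO3 per hour. Their adjusted p in limma were 0.129, 0.144 and 0.114, and 0% of all tested genes passed. Without adjustment these 3 of 9 genes and 2149 of all genes had a p under 0.05. With the Nupr1 set fitted alone these 3 of 9 passed (adjusted p of 0.0498 for YPEL2, 0.0313 for INSR and 0.0383 for FOXO3), where 257 of the 11026 tested genes had a rising and 584 a falling slope past the threshold. Single arrays moved the slopes: that of YPEL2 was -0.03 without either array at 0 h (adjusted p up to 0.777), and that of FOXO3 was 0.06 without either array at 9 h (adjusted p up to 0.755). The slope of FOXO3 was -0.02 ± 0.02 in the cluster shared with FOXO3B.

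Neither NF-kB siRNA changed any of the 9 genes past the threshold. In limma 0 of 9 were called for siRelA, 0 of 9 for siRelB and 0 of 9 for siRelB against siRelA, where 21.5%, 16.1% and 10.1% of all tested genes were called. At an unadjusted p under 0.05 the counts were 0, 1 and 1, the gene being IRS2. Of all 11026 tested genes 3525, 3128 and 2587 had such a p, so these counts do not exceed the background. IRS2 was lower with siRelB than with siCtrl in both media, by -0.23 in EBSS and -0.35 in mock, and the fit gave -0.29 ± 0.12 (adjusted p = 0.124, 95% interval -0.55 to -0.03). Against siRelA it was also -0.29 ± 0.12 (adjusted p = 0.152), lower in 2 of 2 pairs. FOXO3 was higher in 2 of 2 pairs with siRelA (0.32 ± 0.19) and with siRelB (0.34 ± 0.19), which share the siCtrl arrays, with adjusted p of 0.262 and 0.256. These comparisons rest on 2 pairs each, and a p that misses the threshold does not show equal levels: the 95% interval of IRS2 for siRelA, whose difference was 0.00, ran from -0.26 to 0.26.

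Nor did a response to EBSS differ past the threshold between siRNAs of the NF-kB set. This test compared single arrays, and the model with these differences fitted all 6 arrays of that set exactly. Its standard errors therefore reflect scatter among the Nupr1 arrays, with 3 residual degrees of freedom before moderation. A missed threshold here does not show equal responses: for INSR with siRelA the 95% interval ran from -1.2 to 0.08. The siRelA difference in EBSS minus that in mock was called for 0 of 9 genes and for 0.0363% of all tested genes, and the siRelB one for 0 of 9 and 0%. No gene of the 9 had an unadjusted p under 0.05 in either, beside 572 and 401 of all 11026 tested genes. The largest were those of INSR (-0.56 ± 0.31), YPEL5 (-0.49 ± 0.27) and CCNG2 (-0.49 ± 0.25) for siRelA, each with an adjusted p of 0.999.

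**Figure D4:**
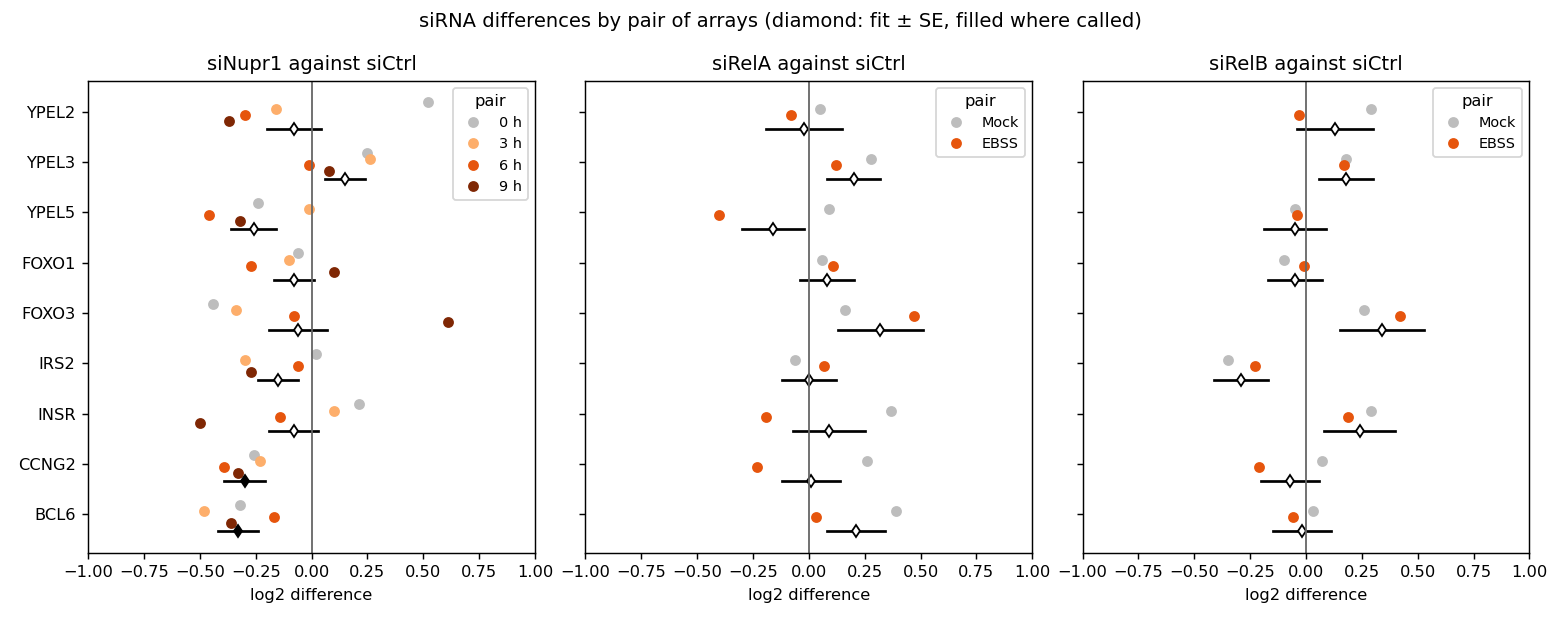
Differences between siRNA and siCtrl in each pair of arrays (dots, coloured by time or medium) and fitted over the pairs (diamonds with ± 1 SE, filled where the adjusted p is under 0.05), on a log2 axis. The filled diamonds are CCNG2 at -0.30 and BCL6 at -0.33 for siNupr1, whose 4 dots each lie below 0.

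Across the 14 arrays most of these genes were positively correlated with each other. After each set's mean was taken off, 35 of the 36 pairs among the 9 genes had a Pearson correlation above 0, with a median of 0.60, beside a median of 0.00 for these genes with all other tested genes. The arrays share the starvation contrast, the genes were chosen with earlier results of these data known, and the figures are a description. The highest values were 0.92, for YPEL2 with CCNG2 and for IRS2 with CCNG2, and the lowest was -0.02, for FOXO3 with INSR. FOXO1 ran closest to YPEL3 (0.82) and FOXO3 (0.75), while BCL6 ran closest to IRS2 (0.89).

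The tested genes most alike in pattern, by the same correlation over 14 arrays, differed from gene to gene. For YPEL2 they were KLHL24 (0.961), MAFG (0.955) and CEBPB (0.954). For CCNG2 they were FLCN (0.966), which encodes folliculin, MAFF (0.945) and HBP1 (0.938). For IRS2 they were MAFF (0.963), SLC3A2 (0.954), the heavy chain of amino acid transporters, and OSER1 (0.941). For YPEL5 they were SLC1A4 (0.969), UTP4 (0.958) and SLC6A9 (0.953), where SLC1A4 and SLC6A9 encode transporters of neutral amino acids and glycine. For YPEL3 they were NDRG1 (0.962), CYB5R1 (0.959) and SLC45A1 (0.956). For BCL6 they were PER1 (0.947), JUN (0.906) and NR1D1 (0.901), of which PER1 and NR1D1 are clock genes. For FOXO1 they were RASIP1 (0.955), RPL10L (0.955) and IER5L (0.953). For FOXO3 they were HOXC12 (0.955), IRX2 (0.939) and PLK5 (0.929), and for INSR they were RMC1 (0.919), MOB3A (0.909) and CECR2 (0.908).

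**Figure D5:**
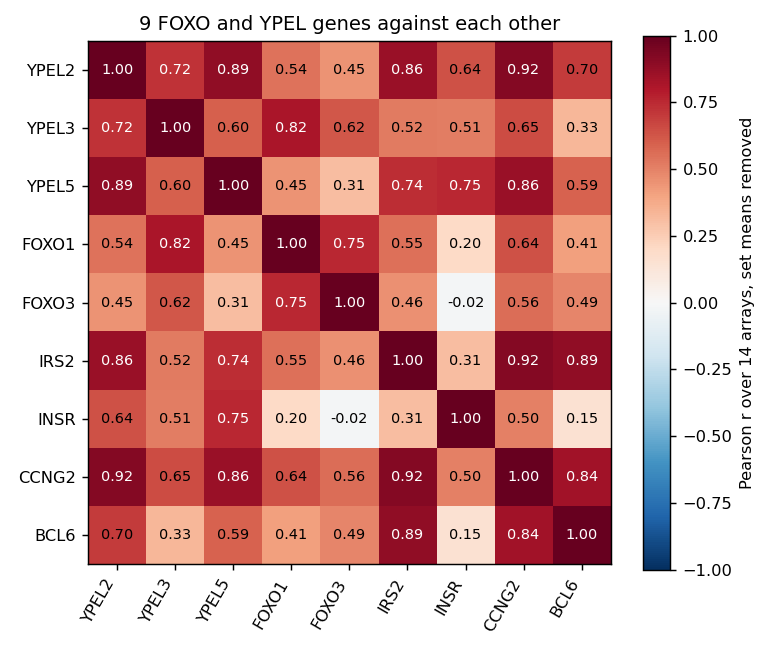
Pearson correlation of each pair of the 9 tested genes over 14 arrays, after the mean of each set was subtracted; colour and printed value give r. The cells among YPEL2, IRS2 and CCNG2 are at 0.86 to 0.92, and FOXO3 with INSR is at -0.02.

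Other known FOXO targets were counted from a list of 41 genes, of which 29 were tested. At 9 h against 0 h 15 rose and 0 fell (median 0.40), and against mock 14 rose and 6 fell (median 0.27). Among all tested genes the share of rises was 9.19% and that of falls 15.1% at 9 h. Against mock these shares were 22.6% and 29.3%, so falls were common there. At 3 h 9 rose and 2 fell, and at 6 h 14 rose and 1 fell. The share of rises among all tested genes was 3.27% at 3 h and 7.65% at 6 h, and that of falls 9.07% and 15.7%. The largest at 9 h were KLHL24 (2.09 ± 0.14), BTG1 (1.74 ± 0.14) and HBP1 (1.45 ± 0.16), of which BTG1 and HBP1 restrain proliferation, and GADD45A (1.34 ± 0.12), a growth arrest and DNA damage gene, with adjusted p of 3.588e-09, 6.196e-08, 1.366e-06 and 1.532e-07. The largest against mock were HBP1 (0.91 ± 0.13), BTG1 (0.89 ± 0.12), DEPP1 (0.79 ± 0.12) and KLHL24 (0.78 ± 0.11), with adjusted p of 7.413e-06, 3.303e-06, 2.122e-05 and 8.951e-06. The 6 that fell against mock were RBL2, SESN1, CAT, SOD2, PRDX3 and ZFAND5, between -0.53 and -0.23; CAT, SOD2 and PRDX3 are antioxidant enzymes. The 15 at 9 h became 10 without the siCtrl array at 0 h or at 9 h and 11 with array weights, and the 6 that fell against mock became 1 without the siRelA array in EBSS or in mock and 4 without the siCtrl array in either. For siNupr1 3 of the 29 rose and 3 fell, for siRelA 2 and 3, and for siRelB 3 and 3, near the 18.4%, 21.5% and 16.1% of all tested genes that changed in either direction. PDK4, FBXO32, TRIM63, G6PC1 and PCK1, targets best known from muscle and liver, were below the filter. So were the other untested targets, TNFSF10, FASLG, SESN3, BNIP3, ERBB3, CCND2 and PPARGC1A.

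Genes of insulin, PI3-kinase and AKT signalling were counted in the same way. Of 23 tested on a list of 29, 5 rose and 7 fell against mock, and 2 and 2, 6 and 2 and 8 and 2 rose and fell at 3, 6 and 9 h. Against mock these are close to the shares over all tested genes, 22.6% rising and 29.3% falling. At 3, 6 and 9 h 3.27%, 7.65% and 9.19% of all tested genes rose and 9.07%, 15.7% and 15.1% fell. TRIB3, a pseudokinase that binds AKT, rose by 2.72 ± 0.17 at 9 h (adjusted p = 1.62e-09) and by 1.36 ± 0.13 against mock (adjusted p = 1.031e-07). GRB10, an adaptor that restrains the insulin receptor, rose by 1.38 ± 0.17 at 9 h (adjusted p = 6.171e-06) and stood at 0.09 ± 0.14 against mock (adjusted p = 0.595). PIK3R3, a regulatory subunit of PI3-kinase, had differences of -0.92 ± 0.14 at 9 h and -1.59 ± 0.12 against mock, and the catalytic subunit PIK3CB of -0.47 ± 0.12 and -1.19 ± 0.10, and both fell in both. RICTOR, of the kinase complex that activates AKT, rose by 0.56 ± 0.14 at 9 h and fell by 0.83 ± 0.11 against mock. INPP4B, a lipid phosphatase, rose by 0.69 ± 0.12 at 9 h and fell by 0.40 ± 0.10 against mock. For siNupr1 2 rose and 2 fell, for siRelA 4 and 1, and for siRelB 3 and 2. Of all tested genes 18.4%, 21.5% and 16.1% changed in either direction.

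All 18 regulators of FOXO proteins on the list were tested. Against mock 1 rose and 12 fell, and at 3, 6 and 9 h 0 and 4, 2 and 5 and 3 and 4 rose and fell. Over all tested genes 22.6% rose and 29.3% fell against mock. At 3, 6 and 9 h 3.27%, 7.65% and 9.19% of them rose and 9.07%, 15.7% and 15.1% fell. SKP2, a ubiquitin ligase subunit that marks FOXO1 for degradation, fell by 2.34 ± 0.14 at 9 h (adjusted p = 9.637e-10) and by 1.67 ± 0.11 against mock (adjusted p = 1.291e-09). XPO1, the nuclear export receptor, USP7, a deubiquitinase, and MAPK9, the kinase JNK2, fell against mock, by 1.23 ± 0.09, 0.64 ± 0.09 and 0.53 ± 0.09. MDM2, SIRT1 and MAPK8 rose at 9 h, by 0.67 ± 0.13, 0.62 ± 0.11 and 0.56 ± 0.13. MDM2 and SIRT1 fell against mock, by 0.40 ± 0.10 and 0.26 ± 0.09. With siNupr1 1 of the 18 rose and 4 fell, with siRelA 4 and 5, and with siRelB 1 and 3. Over all tested genes 18.4%, 21.5% and 16.1% changed in either direction.

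Near relatives of these genes, such as other YPEL, FOXO and IRS genes, were counted too. Of 11 listed, 6 were tested, and 0 rose and 0 fell at 3, 6 and 9 h. Over all tested genes 3.27%, 7.65% and 9.19% rose and 9.07%, 15.7% and 15.1% fell at these times. Counts of 0 among 6 genes are near that background. Those shares were 22.6% and 29.3% against mock. Against mock YPEL1 rose by 0.65 ± 0.12 (adjusted p = 0.000155) and CCNG1, which encodes cyclin G1, fell by 0.37 ± 0.08 (adjusted p = 0.00125). With siRelA IGF1R, IRS1 and CCNI rose, by 0.49 ± 0.12, 0.49 ± 0.14 and 0.47 ± 0.09, and CCNG1 fell by 0.53 ± 0.10. IGF1R, the receptor for insulin-like growth factor, rose also with siRelB, by 0.49 ± 0.12, and FOXO4 rose with siNupr1, by 0.37 ± 0.11 (adjusted p = 0.0201). Of all tested genes 21.5%, 16.1% and 18.4% changed in either direction with siRelA, siRelB and siNupr1.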

How the data were processed

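RNA of 14 MiaPaCa2 samples was measured, 1 array per combination of siRNA, medium and time. The deposited values are log2 expression values per transcript cluster, made by the authors with RMA, per the submitters' processing notes, which also name limma; versions, annotation and build: not given in the sources used here. RMA corrects background, quantile normalizes and summarizes probes. Of 28869 clusters, 19310 carried 1 symbol, 19279 of these were matched by Entrez identifier to RefSeq symbols, and the brightest cluster stood for each of 18377 genes. The 10 genes described each had 1. The 40% of genes with the lowest mean (under 5.805) were left out.

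With R 4.3.3 and limma 3.58.1, set, siRNA and condition were fitted jointly (lmFit, eBayes with an intensity trend), with 9 columns, 5 residual degrees of freedom and 19.6 after moderation; the residual spread also takes in any change of an siRNA's difference between conditions. Genes were called at an adjusted p under 0.05. The slope on hours and the differences between media were added in turn. The number of arrays limits the precision. The fits were tested on simulated data. Alternatives were leaving out each array, quantile normalization, filters, array weights, no trend, the mean of a gene's clusters, each set alone, span removed and, chosen after the values were seen, another FOXO3 cluster.

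The genes, gene lists and tests were chosen with earlier results of these data known. Named genes are the 10, the targeted genes, the 3 genes most correlated with each, and up to 4 called genes per list with the largest difference; the genes of the lists that fell against mock, changed with an siRNA or are given as below the filter were named after their values were seen.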

Additional observations from a re-analysis of the deposited data

Results flagged for a closer look

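Genes whose starvation response at 9 h differed between the sets by the test of that difference itself were 4 of the 9 tested: YPEL2 at -0.68 ± 0.22, YPEL3 at 0.68 ± 0.16, YPEL5 at -0.67 ± 0.18 and BCL6 at -0.70 ± 0.17 (log2, NF-kB set minus Nupr1 set, limma, adjusted p of 0.0286, 0.00359, 0.0116 and 0.00433). The YPEL2 call was lost in 10 of 21 settings (-0.28 without the siCtrl array at 0 h), among them with the span trend removed. The YPEL5 call was lost in 3, without the siRelA array in EBSS or in mock and with array weights. That of YPEL3 was kept in 21 of 21, at 0.46 to 0.75. Spearman's rho of the difference with genomic span was -0.424 against mock and -0.023 at 9 h against 0 h. YPEL3 rose more against mock and the other three more against 0 h. The references differ in time and perhaps in medium, since the composition of mock is not given and the labels of the 0 h arrays conflict, and the sets were separate. These cannot be told apart.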

How the results depend on the processing

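Over 117 differences of the 9 tested genes, 2457 values were computed under alternatives. Of these 2382 kept direction and side of the threshold or passed on neither side, 53 lost a call, 22 gained one and 0 reversed among called values; 52 that passed on neither side changed sign. Calls for starvation were kept in 152 of 154 values against mock and in 107 of 110, 132 of 154 and 129 of 132 at 3, 6 and 9 h. Leaving out 1 array gave 7 to 8 called genes against mock, 4 to 6, 5 to 7 and 5 to 7 at 3, 6 and 9 h, 0 to 3 for 9 h against 3 h (1 otherwise), 0 to 2 for siNupr1 (2 otherwise) and 2 to 6 for the difference between sets (4 otherwise). Array weights gave 2 for the difference between sets, and fitting each set alone gave 3 for the slope on hours (0 otherwise), where 257 of the 11026 tested genes rose and 584 fell. The difference between sets and the interactions of siRelA and siRelB with medium cannot be fitted in 1 set alone or where an array they need is left out. No paired analysis was possible because the labels give no shared replicate numbers; siRNA and time or medium are already terms of the model. With 1 array per combination, the number of arrays limits the precision.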
